A study of Mus musculus with 3 samples.

Results

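The 10 genes described here carry out the classical MHC class I pathway of peptide presentation, from the proteasome to the cell surface. They were chosen by name, as the rows of the deposited count tables whose gene symbol was B2m, H2-K1, H2-D1, Tap1, Tap2, Tapbp, Psmb8, Psmb9, Psmb10 or Nlrc5. All 10 were found among the 37646 genes listed, and all 10 were among the 11478 genes with enough counts in every tumour to be tested. RNA was counted in B220+GFP+ cells sorted from spleens of moribund pBIC mice, 1 library for each of 3 lymphomas, with 15022902 to 15141009 counts per library. Every animal carried p53F/F and Blimp1F/F alleles, an IKK2castopF/stopF allele and Cg1Cre/+ on the C57BL/6 strain. Recombination is thus tied to cells in which the Cg1 (Ighg1) constant region locus has been active, and all 3 libraries share the floxed p53 and Blimp1 alleles and the active IKK2 allele behind its stop. The labels give no age for the animals and do not say that they were unrelated. The normal germinal centre B cells that the study's design names as controls were not analysed here, so the values below describe lymphomas only and show no gain or loss against normal B cells.

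MHC class I molecules show fragments of a cell's own proteins to CD8 T cells. Proteasomes cut the proteins, the TAP1 and TAP2 transporter moves the fragments into the endoplasmic reticulum, and tapasin (Tapbp) holds empty class I molecules at the transporter while they are loaded. The heavy chains H2-K and H2-D pair there with the small invariant chain beta-2-microglobulin. In lymphocytes and after interferon gamma, the subunits encoded by Psmb8, Psmb9 and Psmb10 replace the constitutive catalytic subunits to form the immunoproteasome. NLRC5 is the class I transactivator: it binds no DNA itself and acts through factors seated on a conserved W/S-X-Y arrangement in class I promoters. NF-κB and interferon regulatory factors bind further upstream in the same promoters. Loss of class I or of beta-2-microglobulin is a known event in human large B cell lymphoma.

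The promoter arrangement was read first, because these 10 genes are known to share regulators. RefSeq promoter windows (GRCm38.p6, 250 bases before to 50 bases after a transcription start) matched 8 of the 10 genes by symbol, and Tap2 and Nlrc5 had no entry. Both strands were searched. The half-site TGACG of the X2 box followed at a fixed distance by the Y box core ATTGG, spelled TGACGNNNNNNNNNNNNNNNNNNNNATTGG, was present in 31 of 32851 promoter windows (0.0944%), belonging to 27 genes. B2m, H2-K1 and H2-D1 were among them, and so was H2-M3, a nonclassical class I gene. The spacing was chosen after these sequences were seen, so the match is a description. The 3 stretches are shown because they hold this arrangement, with the X2 half-site and the Y box core in capitals.
H2-K1 X2-Y: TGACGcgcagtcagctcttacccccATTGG
H2-D1 X2-Y: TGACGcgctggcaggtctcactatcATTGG
B2m X2-Y: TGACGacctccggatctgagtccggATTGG
The H2-K1 stretch is at chr17:34000359-34000388 on the minus strand, from -41 to -12 relative to the upstream of the listed starts, and lies outside the annotated exons of the gene. The H2-D1 stretch is at chr17:35262993-35263022 on the plus strand, from -101 to -72, within an exon of H2-D1 as annotated in GENCODE M21, whose gene model begins upstream of the RefSeq start. The B2m stretch is at chr2:122147609-122147638 on the plus strand, from -78 to -49, outside the annotated exons.

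A second block lay upstream in the same promoters. It holds a match to the kappaB consensus, the site of NF-κB, and a match to AANNGAAA or its reverse complement, the core of sites for interferon regulatory factors. These stretches are shown with both matches in capitals.
H2-K1 upstream: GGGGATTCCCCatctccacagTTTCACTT
H2-D1 upstream: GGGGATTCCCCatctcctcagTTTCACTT
B2m upstream: AACTGAAAatgGGAAAGTCCC
They are at chr17:34000430-34000458 (minus strand), chr17:35262923-35262951 (plus strand) and chr2:122147550-122147570 (plus strand). In both heavy chain genes the kappaB match came first, and in B2m the interferon factor match came first. The kappaB consensus was present in 4.51% of all promoter windows and AANNGAAA in 23.9%, and among the 8 genes searched only B2m, H2-K1 and H2-D1 held either. The separate half-sites are common: TGACG was in 20.8% of windows and in 5 of the 8 genes (the 3 above, Tap1 and Psmb9), and ATTGG was in 37.4% and in 6 of the 8 (the same 5 and Tapbp). In Tap1 and Psmb9, whose windows overlap, both matches are the same bases counted for each gene. Psmb8 alone held TTCNNNGAA, the GAS motif of interferon-responsive promoters, which 8.30% of windows hold. No match says only that the letters are not in this window.

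**Figure D1:**
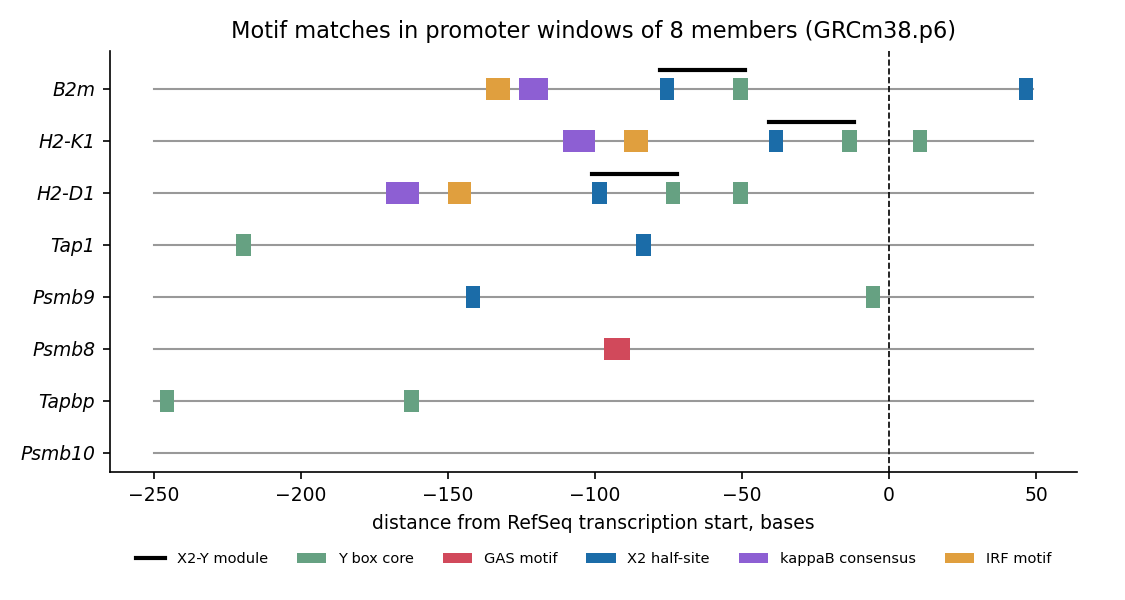
Positions of motif matches in the RefSeq promoter windows of 8 genes, in bases from the transcription start (dashed line); coloured boxes are matches on either strand and the black bar spans the X2-Y arrangement. B2m, H2-K1 (drawn from its upstream start) and H2-D1 carry the bar together with the kappaB and interferon factor matches, and the other 5 genes do not.

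Of the 10 genes, 7 lie on chromosome 17 (positions from GENCODE M21 on GRCm38, the assembly also called mm10). Psmb9 (ENSMUSG00000096727.3, chr17:34181987-34187764, minus strand), Tap1 (ENSMUSG00000037321.17, chr17:34187553-34197225), Psmb8 (ENSMUSG00000024338.15, chr17:34197721-34201454) and Tap2 (ENSMUSG00000024339.12, chr17:34203527-34216321), the last 3 on the plus strand, sit side by side in the class II region. H2-K1 (ENSMUSG00000061232.16, chr17:33996017-34000347, minus strand) and Tapbp (ENSMUSG00000024308.15, chr17:33915899-33929292) lie on one side of them and H2-D1 (ENSMUSG00000073411.12, chr17:35262730-35267499) on the other. B2m is on chromosome 2 (ENSMUSG00000060802.8, 122147686 to 122153083), and Psmb10 (ENSMUSG00000031897.9, 105935735 to 105938444) and Nlrc5 (ENSMUSG00000074151.13, 94434356 to 94527272) are on chromosome 8. Tap1 and Psmb9 are head to head: their annotated exons overlap by 212 bases on opposite strands. Their promoter windows share 1 TGACG, at chr17:34187470-34187474, and 1 ATTGG, at chr17:34187334-34187338. Whether reads were counted by strand is not given in the sources used here, so reads from the overlap cannot be assigned to either gene with certainty.

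The class I pathway was among the most abundant RNA in these lymphomas. The 10 genes together took 0.886%, 1.12% and 0.922% of all counts in tumours 1, 2 and 3. Levels are given in CPM, the read count scaled to the library total so that all counts of a library add up to 1000000, as mean ± SD over the 3 tumours. All 10 genes reached 100 CPM in every tumour, a level that 15.7% of tested genes reached. Their median was 423 CPM, against 33.4 CPM over all genes tested. B2m, H2-K1 and H2-D1 supplied 71.5% to 73.0% of the counts on the 10 genes.

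B2m, the invariant light chain, was at 3491, 4699 and 3676 CPM in tumours 1, 2 and 3 (3955 ± 651, n = 3). H2-K1, the heavy chain of H2-K, was at 1664, 2049 and 1567 CPM (1760 ± 255, n = 3). H2-D1, the heavy chain of H2-D, was at 1179, 1437 and 1434 CPM (1350 ± 148, n = 3). All 3 lymphomas held abundant RNA for all 3 surface components: the lowest tumour stood within 1.35-fold of the highest for B2m, 1.31-fold for H2-K1 and 1.22-fold for H2-D1. Because these are counts, a defect in the protein or in its transport to the surface would not show.

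The heavy chains were also compared as shares. In tumour 1, H2-K1 took 58.5% of the counts on both genes (95% exact binomial interval 58.1% to 59.0%). The share was 58.8% for tumour 2 (58.4% to 59.2%) and 52.2% for tumour 3 (51.8% to 52.7%). Tumour 3 stood apart from the other tumours by more than counting error, which is all these intervals cover. Sequence is shared with other genes: 8.79% of the 50-base windows of the H2-K1 transcript and 14.3% of those of H2-D1 also occur in other transcripts. For H2-D1 these belong to 168 genes, led by class I genes but including others such as Terf1 (1.17%) and Adsl (1.07%). The windows shared between H2-K1 and H2-D1 are 6.94% of H2-K1. How reads with several matches were treated is not given in the sources used here, so the split between these 2 genes is uncertain. In the 1 transcript searched for each gene, B2m, Psmb10 and Nlrc5 shared no window with another gene. Among the rest, the share ran from 5.83% for Psmb8 to 21.02% for Tapbp. Most of the Tapbp share was with the antisense gene Gm19412, which had at most 4 counts in any tumour. By annotated exons, Tapbp also overlaps Zbtb22 by 149 bases on the same strand (422, 400 and 620 Zbtb22 counts in tumours 1, 2 and 3). Nlrc5 exons overlap 9330175E14Rik by 78 bases on the opposite strand (555, 478 and 1136 counts of that gene).

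In CPM the transporter and its partner had the narrowest ranges of the 10 genes. Tap1, which forms the transporter with Tap2, was at 648, 667 and 614 CPM (643 ± 27.0, n = 3), and Tap2 at 240, 249 and 216 CPM (235 ± 17.4, n = 3). Tapbp, which encodes tapasin, was at 398, 461 and 421 CPM (427 ± 31.7, n = 3). The highest tumour was 1.09-fold above the lowest for Tap1 and 1.16-fold above it for Tap2 and for Tapbp. A range smaller than that of Tap1 was found for 2.26% of tested genes. With TMM factors, another scaling of the libraries, the ranges were 1.15-fold for Tap1 and 1.23-fold for Tap2 and for Tapbp. With the length and GC trend described below also removed, they were 1.34-fold for Tap1, 1.35-fold for Tap2 and 1.28-fold for Tapbp. Those of B2m (1.10-fold) and H2-D1 (1.201-fold) were then narrower.

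The 3 immunoproteasome subunits and Nlrc5 had wider ranges. Psmb8, the inducible chymotrypsin-like subunit, was at 284, 541 and 434 CPM (420 ± 129, n = 3), a range of 1.91-fold. Psmb9 was at 295, 514 and 273 CPM (361 ± 133, n = 3), a range of 1.88-fold that fell to 1.08-fold without tumour 2. Psmb10 was at 199, 340 and 272 CPM (270 ± 70.8, n = 3), a range of 1.71-fold. Tumour 2 was highest for all 3 subunits, but the order of the other tumours was not shared: tumour 1 was lowest for Psmb8 and Psmb10, and tumour 3 was lowest for Psmb9. Without tumour 1 the range of Psmb8 was 1.25-fold.

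Nlrc5, the transactivator, ran the other way. It was at 463, 259 and 315 CPM (346 ± 105, n = 3), a range of 1.78-fold, with tumour 1 highest and tumour 2 lowest. In CPM the other 9 genes were highest in tumour 2, but in TPM only 6 were, and with a length and GC trend removed Nlrc5 was lowest in tumour 3.

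**Figure D2:**
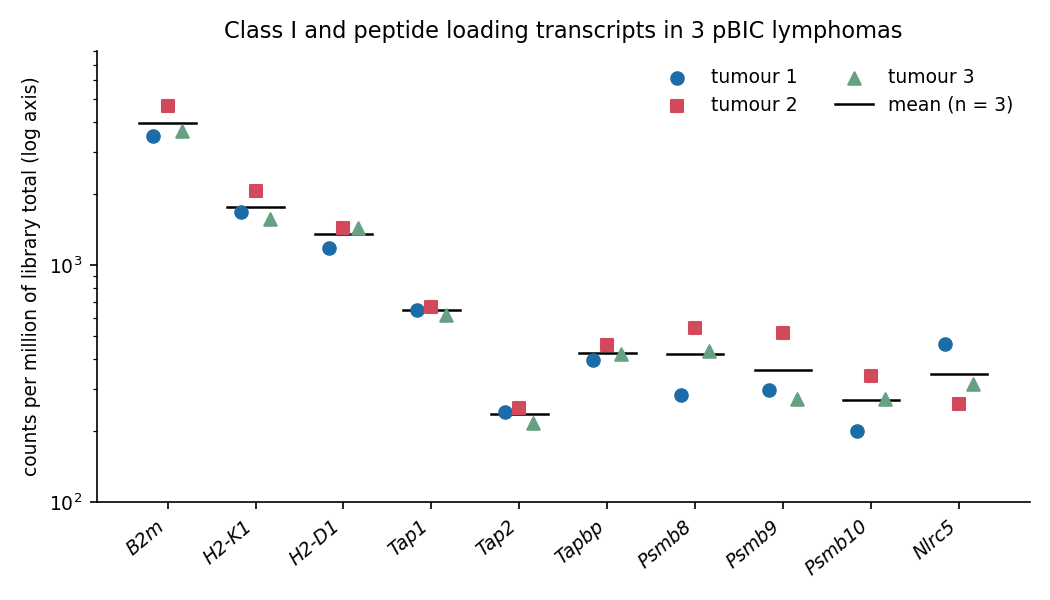
Level of each gene in CPM of the library total (log axis) in tumours 1, 2 and 3, with the mean as a black line. On this scale tumour 2 is highest for 9 genes (6 in TPM), and Nlrc5 is highest in tumour 1 at 463 CPM and lowest in tumour 2 at 259 CPM.

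None of the 10 genes was called as varying between tumours more than genes of like abundance. The edgeR variability test, which sets each gene's residual deviance against the prior variance at its abundance, called 0 of the 10 at an adjusted p below 0.05, against 0.139% of all tested genes (16 of 11478). At an unadjusted p below 0.05 it also called 0 of the 10, against 6.27% of tested genes. The lowest adjusted p in the edgeR test was 0.939, for Psmb9, followed by 0.986 for Psmb8. A difference between tumours smaller than the usual spread of these libraries would not be called, so the test does not show that the levels were equal. P-values here measure only the spread between these samples.

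By range, 0 of the 10 genes differed 2-fold or more between the highest and the lowest tumour, against 29.2% of tested genes and 11.8% of the 824 genes at least as abundant as Tap2, the lowest of the 10. The median range of the 10 genes was 1.33-fold, that of all tested genes 1.63-fold and that of the abundant genes 1.46-fold. Psmb8 and Psmb9 lay just under 2-fold. Psmb8 reached 2.03-fold when CPM were scaled with TMM factors. In bulk RNA, fewer cells of a type and less RNA per cell cannot be told apart.

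**Figure D3:**
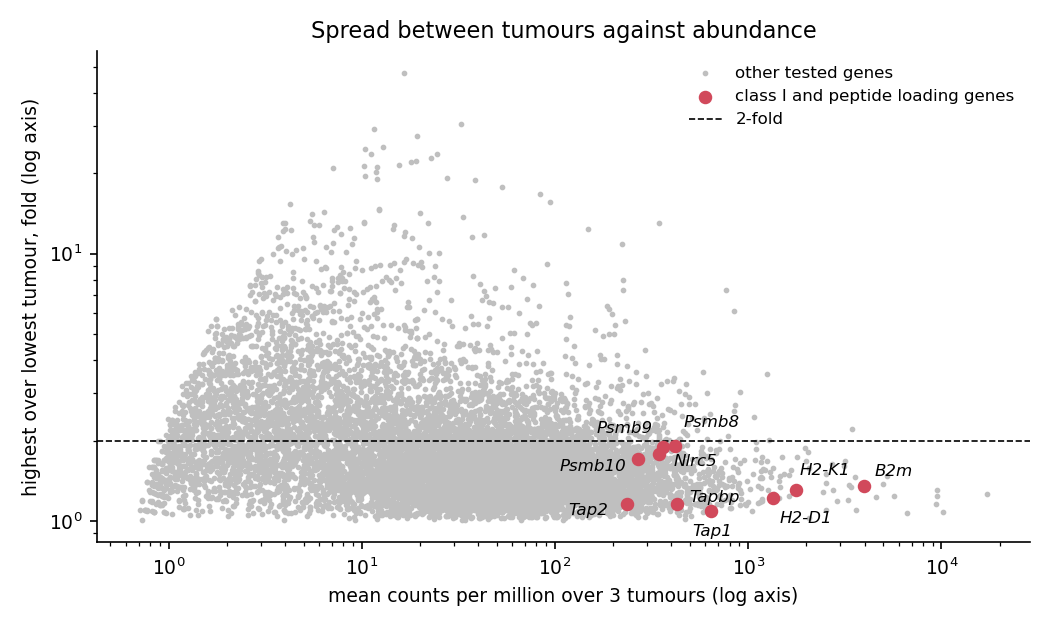
Range between tumours (highest over lowest, log axis) against mean level in CPM (log axis) for the tested genes in grey and the class I and peptide loading genes in red; the dashed line marks 2-fold. All 10 red points lie below the line, from 1.09-fold for Tap1 to 1.91-fold for Psmb8.

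In CPM, tumour 2 was highest for 9 of the 10 genes, for H2-D1 by a near tie with tumour 3 (1437 against 1434 CPM). Over all tested genes, 35.4%, 30.2% and 34.5% were highest in tumours 1, 2 and 3, and tumour 2 was highest for 43.9% of the 824 abundant genes. In TPM, which divides by exon length and by the length-corrected total of each library, tumour 2 was highest for 6 of the 10 genes, against 22.96% of tested genes and 32.4% of the abundant genes. Tap1 and Tap2 were then highest in tumour 1, as Nlrc5 was, and H2-D1 was highest in tumour 3. The count of genes highest in tumour 2 thus depends on the scaling, and only B2m, H2-K1, Tapbp and the 3 immunoproteasome subunits were highest there in CPM, in TPM and with the trend described next removed. Gene length moved with this order across the whole table. Among the 2868 tested genes with the shortest exon length (up to 2613 bases), 48.0% were highest in tumour 2 and the median stood 0.12 above the mean of the tumours on the log2 scale. Among the 2868 longest (6649 bases or more), 13.0% were highest in tumour 2 and the median stood at -0.29. B2m (860 bases), Psmb10 (1705 bases) and H2-D1 (2579 bases) fall in the shortest bin and Nlrc5 (8493 bases) in the longest. The other 6 have between 2938 and 5476 bases.

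A trend of each tumour on length and GC content was then removed from all genes, a step chosen after seeing the data. The values after this step also carry TMM factors. Tumour 2 was still highest for the same 9 genes, against 38.5% of tested genes. The range of B2m then fell to 1.10-fold and that of Nlrc5 to 1.299-fold, with 395, 315 and 304 CPM for Nlrc5 in tumours 1, 2 and 3. Nlrc5 was then lowest in tumour 3 and not in tumour 2. Psmb9 was at 290, 542 and 264 CPM, a range of 2.05-fold, against 1.88-fold in CPM and 1.999-fold with TMM factors alone. Tumour 2 was highest for all 3 immunoproteasome subunits before and after the trend was removed. The low of Nlrc5 in tumour 2 was seen only before the removal.

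The genes outside the 10 whose course over the tumours lay nearest to the median course of the 10 were Edem2, Msra, Slc30a6, Atp6v1e1 and Gtf3c5, at distances of 0.024 to 0.025 in centred log2 CPM over 3 tumours. With 3 points this likeness is weak: 6555 of the 8463 genes compared lay as near as Nlrc5, the farthest of the 10, at 0.806.

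**Figure D4:**
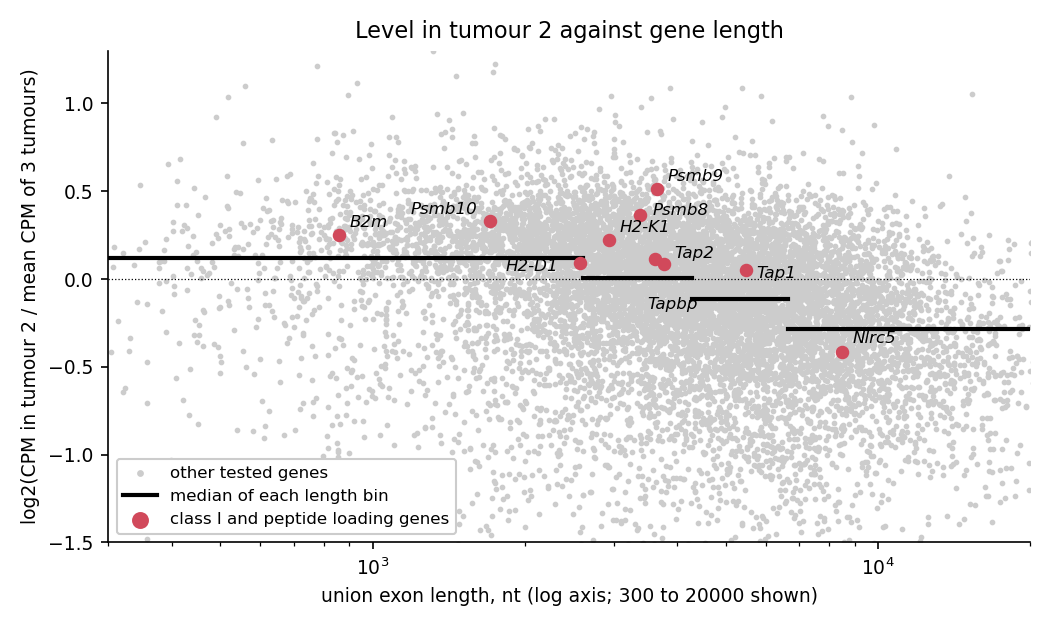
Level in tumour 2 relative to the mean of the 3 tumours (log2) against union exon length in bases (log axis; a few genes lie outside the ranges drawn) for the tested genes in grey and the class I and peptide loading genes in red; black bars are the medians of 4 length bins with equal numbers of genes. The medians fall from 0.12 in the bin of shortest genes to -0.29 in that of the longest, and Nlrc5 lies below 0 while the other 9 genes lie above it.

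To compare genes with each other, counts were divided by exon length (TPM, the length-corrected counterpart of CPM, with the union of all annotated exons). B2m was at 13769 ± 1597 TPM, H2-K1 at 1797 ± 204 and H2-D1 at 1569 ± 97.5 (SD, n = 3). Next came Psmb10 at 472 ± 98.5, Psmb8 at 369 ± 94.8, Tap1 at 353 ± 23.04, Tapbp at 353 ± 9.16 and Psmb9 at 294 ± 94.9 TPM. Tap2 at 187 ± 16.7 and Nlrc5 at 124 ± 45.1 TPM were the least abundant. The steps from B2m to H2-K1, from H2-D1 to Psmb10 and from Psmb9 to Tap2 were clear of overlap between tumours, and all other neighbours in the order overlapped. With the longest protein-coding transcript as length, a choice made after seeing the data, the first 3 and last 2 places were the same and Psmb9, at 577 TPM, moved to the fourth.

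Differences between genes were taken within each tumour in log2(TPM + 1), for 9 pairs chosen by their roles. With 3 tumours the exact two-sided sign-flip permutation test cannot give a p below 0.25, so none of the 9 could pass 0.05. Light chain RNA exceeded the sum of both heavy chains by 2.03 ± 0.08 (SD, n = 3), in 3 of 3 tumours (exact p = 0.25, 0.321 after Benjamini-Hochberg adjustment over the 9). Tap1 exceeded Tap2 by 0.92 ± 0.05, also in 3 of 3. By union exon length, H2-K1 exceeded H2-D1 by 0.31 and 0.32 in tumours 1 and 2 and was 0.06 lower in tumour 3. The mean by this length was 0.19 ± 0.22 (exact permutation p = 0.5), which is within the spread between tumours. Nlrc5 exceeded Ciita, its class II counterpart, by 1.23 ± 0.40 in 3 of 3 tumours. The sizes depend on the length used: with the longest protein-coding transcript the difference was 1.40 for the light chain and 1.67 for Tap1 over Tap2. For H2-K1 over H2-D1 it was then 0.76 ± 0.22. By that length H2-K1 was higher in every tumour, at 2409, 2604 and 2089 TPM against 1314, 1407 and 1472 TPM.

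Inducible and constitutive catalytic subunits were set against each other because each inducible subunit takes the place of one constitutive subunit. Psmb8 was at 269, 457 and 382 TPM and Psmb5, which it replaces, at 97.3, 180 and 158 TPM. The difference was 1.36 ± 0.09 on the log2 scale, with Psmb8 higher in 3 of 3 tumours. Psmb10 was at 373, 570 and 474 TPM and Psmb7, which it replaces, at 91.4, 152 and 131 TPM, a difference of 1.92 ± 0.09 in 3 of 3. For both pairs the exact permutation p was 0.25, the smallest possible. Within these 2 pairs every subunit was lowest in tumour 1 and highest in tumour 2, which in TPM was highest for 22.96% of tested genes.

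The third pair was unlike these. Psmb9 was at 258, 401 and 222 TPM and Psmb6, which it replaces, at 208, 340 and 323 TPM. The difference was 0.31 and 0.24 in tumours 1 and 2 and -0.54 in tumour 3, with a mean of 0.00 ± 0.47 (exact permutation p = 1). Tumour 3 thus combined high Psmb6 with the lowest Psmb9. The sign of the mean depended on the length and the tumours: it was -0.61 with the longest transcript, 0.21 with the longest protein-coding transcript and -0.15 without tumour 1. By the longest protein-coding transcript the other pairs kept their sign, at 2.41 for Psmb8 over Psmb5 and 0.74 for Psmb10 over Psmb7.

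**Figure D5:**
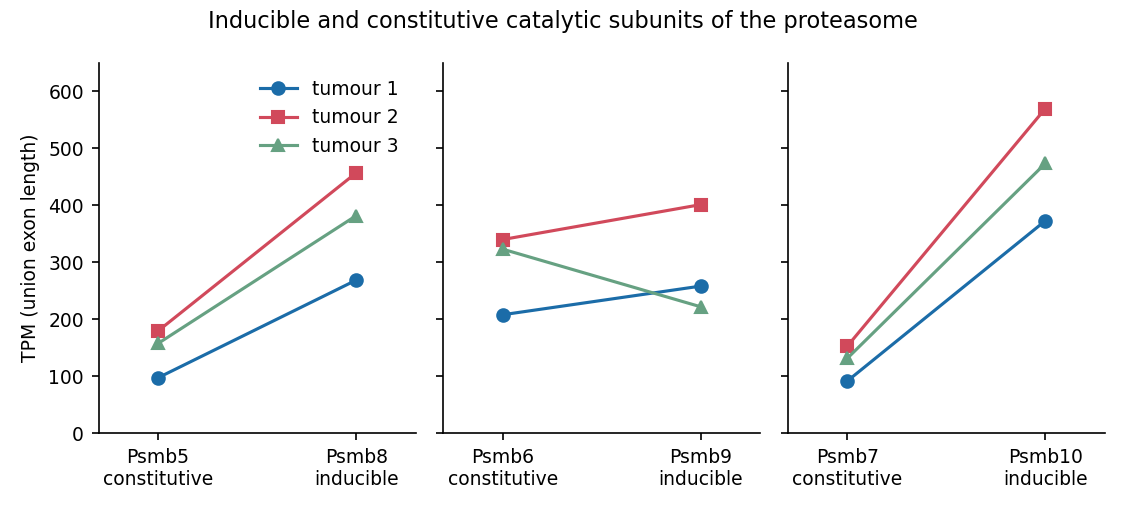
TPM of each constitutive catalytic subunit of the proteasome (left in each panel) and the inducible subunit that replaces it (right) in tumours 1, 2 and 3, joined by a line per tumour. Psmb8 and Psmb10 lie above their partners in all 3 tumours, whereas Psmb9 lies below Psmb6 in tumour 3 (222 against 323 TPM).

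The other genes of the pathway were followed in lists chosen by role. None of their genes was called by the edgeR variability test at an adjusted p below 0.05. At an unadjusted p below 0.05 it called 3 of them, against 6.27% of all tested genes. These were Ciita, of the 8 promoter-binding partners described below, and 2 of the 14 tested interferon signalling genes, Irf8 among them. It called 0 of the 3 constitutive subunits, 0 of 6 proteasome activator and assembly genes and 0 of 5 cytosolic peptidases. It also called 0 of 9 genes for folding and trimming in the endoplasmic reticulum and 0 of 9 tested nonclassical and class I-like genes. The constitutive subunits Psmb5, Psmb6 and Psmb7 were highest in tumour 2 in 3 of 3 cases, with a median range of 1.87-fold. In CPM tumour 2 was highest for 48.0% of the length bin that holds Psmb5 and Psmb6 and for 36.3% of that of Psmb7. Of 6 proteasome activator and assembly genes, 3 were highest in tumour 2. Psme1 and Psme2, which encode the 2 chains of the interferon-inducible PA28 cap, were at 607, 871 and 613 TPM and at 198, 287 and 196 TPM. They kept a difference of 1.62 ± 0.02 on the log2 scale in 3 of 3 tumours. Psme3, which encodes the nuclear PA28 gamma cap, was at 488 ± 26.1 TPM, and Psme4, the lowest of the list, at 35.3 ± 11.5 TPM (SD, n = 3).

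Among 5 cytosolic peptidases, which trim or destroy peptides, Lap3 was at 112, 167 and 95.5 TPM, Thop1 at 81.4 ± 18.6 and Blmh at 60.9 ± 6.88, with Npepps lowest at 48.0 ± 4.27 TPM (SD, n = 3). In CPM, 30.2% of all tested genes and 43.9% of the 824 abundant genes were highest in tumour 2. In the list of 9 genes for trimming, folding and editing in the endoplasmic reticulum, 7 were highest there by that measure. Its most abundant genes were the chaperones Calr at 1304, 1540 and 920 CPM and Hspa5 at 1266, 1402 and 843 CPM, and the disulfide isomerase Pdia3 at 984, 1425 and 845 CPM. Tumour 3 was lowest for all 3, and the summed level of the list was 5643, 6483 and 4065 CPM. Tapbpl, which encodes the tapasin relative TAPBPR, was at 187, 171 and 122 TPM, below Tapbp by 1.16 ± 0.30 on the log2 scale in 3 of 3 tumours. Uggt1, a glucosyltransferase that returns misfolded glycoproteins to the chaperones, was lowest at 58.0 ± 15.6 TPM.

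The factors through which NLRC5 and CIITA reach promoters were less abundant. Of the 8 genes in this list, tumour 1 was highest for 4, tumour 3 for 3 and tumour 2 for 1. Nfya, a subunit of the Y box factor NF-Y, was at 57.8 ± 15.2 TPM, Rfx5, a subunit of the X box factor RFX, at 47.2 ± 27.2 and Rfxank, another RFX subunit, lowest at 8.84 ± 1.93 TPM (SD, n = 3). Ciita was at 273, 136 and 108 CPM and Rfx5 at 135, 62.4 and 56.3 CPM, both highest in tumour 1 as Nlrc5 was. Tumour 1 was highest for 58.6% of the length bin that holds Nlrc5 (8493 bases) and Ciita (9535 bases), and for 39.7% of the bin that holds Rfx5 (5497 bases). The edgeR adjusted p was 0.775 for Ciita and 0.815 for Rfx5, so neither was called.

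Interferon signalling genes did not share an order over the tumours: of the 14 tested, tumour 1 was highest for 7, tumour 2 for 4 and tumour 3 for 3. Irf1, an activator of class I genes, was at 259, 273 and 232 CPM. Irf8, a B cell and myeloid family member, was at 455, 1175 and 911 CPM (edgeR adjusted p = 0.691), and the kinase gene Jak1 was at 223, 148 and 181 CPM. Ifng itself had 8, 22 and 3 counts, too few to be tested.

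Nonclassical and class I-like genes followed no single tumour either. Of 12 listed, 9 were tested, and tumours 1, 2 and 3 were highest for 4, 3 and 2 of them. H2-Q6 was at 474 ± 79.4 TPM, H2-Q4 at 219 ± 50.7 and H2-T23, which encodes the Qa-1 molecule, at 187 ± 27.9 TPM (SD, n = 3). Hfe, an iron regulator with a class I fold, was lowest, at 9, 15 and 3 counts. H2-Q4, H2-Q6 and H2-T23 share 50-base windows with H2-K1 and H2-D1, so their counts carry the same uncertainty.

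The label of a sorted B cell was checked against marker genes. All 9 B cell markers were above 1 CPM in every tumour, with a summed level of 5108, 2851 and 2812 CPM. Of the 9, 8 were highest in tumour 1, against 35.4% of all tested genes. Tumour 1 was highest for 58.6% of the length bin of Pax5, Ebf1 and Ptprc, and for 17.5% of that of Cd79a and Cd79b. Ebf1 was the lowest of the B cell markers, at 14.2, 4.66 and 2.32 CPM. Markers of other cell types that express class I were lower. Summed T cell markers were at 49.3, 36.9 and 50.02 CPM over 7 genes. NK and cytotoxic markers were at 10.6, 9.79 and 2.45 CPM over 5 genes, of which Prf1 made up 9.38, 8.92 and 1.92 CPM. Lck made up 31.8, 11.3 and 9.55 CPM of the T cell sum. Conventional dendritic cell markers were at 10.8, 16.4 and 15.4 CPM over 5 genes, and plasmacytoid ones at 62.0, 76.9 and 76.8 CPM over 3 genes. Of the plasmacytoid sum, Bst2 made up 47.4, 69.9 and 43.4 CPM and Ccr9 13.9, 6.66 and 32.6 CPM. Siglech, the third gene, was at 0.727, 0.399 and 0.862 CPM. Stromal and endothelial markers were at most at 2.64 CPM over 6 genes, with Col3a1 and Pdgfra at 0. Summed macrophage markers were at 152, 144 and 150 CPM over 8 genes, of which Cd68 made up 142, 118 and 144 CPM, while Adgre1, which encodes F4/80, was at 3.30, 0.599 and 0.862 CPM. C1qa, C1qb and C1qc were each between 6.79 and 6.86 CPM in tumour 2 and between 0.594 and 1.26 CPM in the other tumours. Plasma cell markers summed to 132, 548 and 299 CPM over 3 genes. The sum was highest in tumour 2, as 9 of the 10 class I genes were in CPM and 6 in TPM. Jchain, called by the edgeR test (adjusted p = 0.0363), was at 36.3, 396 and 236 CPM. Xbp1 was at 95.6, 151 and 62.0 CPM, and Sdc1 was below 0.5 CPM throughout. Summed neutrophil markers were at 49.4, 17.6 and 2.92 CPM over 6 genes and erythroid markers at 7.27, 24.03 and 138 CPM over 6 genes. Hbb-bs, an erythroid globin gene, was also called by the edgeR test (adjusted p = 0.0234), at 2.64, 8.32 and 62.6 CPM. The part of these cells in the levels of the class I genes was not tested.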

How the data were processed

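Each deposited file holds unnormalized read counts by gene for 1 of 3 sorted pBIC lymphomas (B220+GFP+ spleen cells, poly(A) RNA, single 50-base reads per the labels). Per the submitters' processing notes, the tools were FastQC, STAR 2.5.2b and featureCounts 1.6.0, with mm10. What the authors set in each tool, the annotation release, strand use and the treatment of reads with several matches were not given in the sources used here.

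Counts were scaled to the library total, 15141009, 15022902 and 15074513 counts in tumours 1, 2 and 3, for which 3 counts equal 0.198, 0.200 and 0.199 CPM. TPM used GENCODE M21 union exon lengths. All tumours form 1 group, numbered in accession order, so there was no contrast. An intercept-only edgeR 4.0.16 quasi-likelihood fit (R 4.3.3, TMM factors, filterByExpr, robust prior) gave each gene's residual deviance per degree of freedom, tested one-sided against F over the prior variance. P-values were adjusted by Benjamini-Hochberg over 11478 genes at a threshold of 0.05. The procedure was also run on simulated counts, with changes in 1 tumour that were all larger than any range of the 10 genes. That run does not show whether differences of the size reported here could be called.

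Differences between genes used log2(TPM + 1) and an exact sign-flip test. Binomial intervals are exact at 95% and cover counting error only, because the reads carry no molecular identifiers. Alternatives were DESeq2 1.42.0 size factors, library totals, other filters and priors, other lengths and leaving out each tumour. Besides the 10 genes, the text names from each pathway list the 3 of highest and the 1 of lowest mean TPM, any called gene, the genes in a difference and the 5 nearest in course; 1 gene of the lists is not reported here. The genes, lists and tests were chosen with earlier results of these data known. Promoter sequences are from RefSeq (GRCm38.p6).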

Additional observations from a re-analysis of the deposited data

How the results depend on the processing

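The number of genes called by the edgeR variability test depended on the settings: 16 in the fit reported, 0 with library totals only, 164 with no filter on low counts, 0 with a mean count of at least 10, 0 with a prior that was not robust, and 1 with the length and GC trend removed, the last chosen after seeing the data. Leaving out each tumour gave 0 to 11 calls. The causes were not tested. None of the 10 class I genes was called under any of the 9 alternatives, where their lowest adjusted p was 0.886. The number of the 10 genes with a range of 2-fold or more was 0 as reported and 1 with TMM factors (Psmb8, 2.03-fold). It was also 1 with TMM factors and the trend removed (Psmb9, 2.05-fold, against 1.999-fold with TMM factors alone). None of 60 recomputed mean levels moved by more than 1 SD. For the levels that left out 1 tumour this was fixed in advance, because dropping 1 of 3 values cannot move a mean that far. Psmb9 minus Psmb6 changed sign to -0.61 with the longest transcript as length, to -0.15 without tumour 1 and to -0.11 without tumour 2, and was 0.27 without tumour 3. The other 8 differences kept their sign under every length, pseudocount and tumour left out. No paired analysis was possible because the tumours form 1 group. With 3 tumours no exact p can fall below 0.25, and with 2 tumours none below 0.5.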
